A study of Mus musculus with 6 samples.

Results

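Stefins and cystatins are the protein inhibitors of papain-family cysteine proteases, and 8 of their genes were followed here: the stefin A copies Stfa1, Stfa2, Stfa2l1, Stfa3 and BC100530, and Cstb, Cst3 and Cst7. They were found by symbol among the 21847 genes of the deposited raw table. The table lists the symbol Stfa2 at 2 rows, and the identifier of one of them is Stfa2l1 in the GENCODE M21 annotation, so each of the 8 genes has its own row. Cells of the mouse spleen, depleted of T cells, were kept for 3 days on human cord tissue mesenchymal stromal cells (MSCs) that carried Qtracker, a quantum dot label. Cells labelled as splenic macrophages were then sorted by CD11b and by the presence of Qtracker. The Qtracker positive group, which the labels mark as having engulfed MSCs, and the Qtracker negative group, marked as not, each have 3 libraries numbered 1 to 3. The design text describes the libraries as paired. All cells of both groups shared the culture with the MSCs, so neither group shows macrophages without them. The second gate marker is written as Ly6G in the surface marker label and as Ly6C in the sorting text. Mouse strain, age, and whether the pairs came from separate animals are not given in the sources used here, and the tests below therefore describe how much these libraries vary, part of which may be technical.

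Cystatins work as tight, reversible plugs: a part of the inhibitor, including a short hairpin loop that is conserved across the superfamily, wedges into the active site cleft of cathepsins such as B, L, S, K and H. Stefins A and B have no signal peptide and sit mainly in the cytosol and nucleus, where they guard against proteases that leak from lysosomes. Cystatin C, the product of Cst3, is secreted by most cell types. Cystatin F, the product of Cst7, is made by leukocytes, is carried to endosomes and lysosomes and is known as an inhibitor of cathepsin C, the enzyme that activates the serine proteases of cytotoxic and neutrophil granules. In the mouse the stefin A gene is multiplied into a cluster of similar copies, and these copies are known from neutrophils and their precursors.

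The stretch of coding sequence around the first hairpin loop is shown for all 8 genes because it is what makes them 1 family and because it shows how alike the stefin A copies are, which bears on how their reads can be told apart. The sequences come from GENCODE M21 transcripts (mm10), run 5′ to 3′ on the coding strand, and the capitals mark the 15 bases that encode the loop, with 24 bases on each side.
Stfa1: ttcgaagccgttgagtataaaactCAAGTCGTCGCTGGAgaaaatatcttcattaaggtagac
BC100530: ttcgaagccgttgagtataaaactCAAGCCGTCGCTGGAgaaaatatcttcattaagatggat
Stfa3: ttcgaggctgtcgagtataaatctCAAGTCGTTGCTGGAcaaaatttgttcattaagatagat
Stfa2: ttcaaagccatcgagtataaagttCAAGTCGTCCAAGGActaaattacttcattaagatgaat
Stfa2l1: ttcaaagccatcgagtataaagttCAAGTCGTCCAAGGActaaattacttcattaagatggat
Cstb: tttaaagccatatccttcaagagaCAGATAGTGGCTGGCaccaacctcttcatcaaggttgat
Cst3: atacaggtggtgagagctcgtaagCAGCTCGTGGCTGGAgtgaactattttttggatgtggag
Cst7: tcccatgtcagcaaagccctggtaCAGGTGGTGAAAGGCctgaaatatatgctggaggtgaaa

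Stfa2 and Stfa2l1 had 0 differences in the loop, and their whole coding sequences were identical at 301 of 312 aligned bases (96.5%). BC100530 differed from Stfa1 by 1 substitution in the loop, T5C, counted from 1 at the first capital, and Stfa3 differed from Stfa1 by C9T. Cst7 differed from Cst3, its nearest relative here with 49.3% identity over the coding sequence, by 6 of the 15 loop bases. The stefin A copies lie together on chromosome 16 (mm10), from Stfa2l1 at chr16:36156811-36161953 on the plus strand, through Stfa1 at chr16:36276951-36285373 on the plus strand, BC100530 at chr16:36359382-36367748 and Stfa2 at chr16:36403992-36408457 on the minus strand, to Stfa3 at chr16:36450537-36455392 on the minus strand. Cstb is at chr10:78425669-78427622 on the plus strand, Cst3 at chr2:148871722-148875692 on the minus strand and Cst7 at chr2:150570415-150578944 on the plus strand. Of all runs of 31 bases in the transcript that holds the coding sequence above, 33.1% in BC100530, 53.3% in Stfa1, 58.4% in Stfa2l1 and 66.7% in Stfa2 occurred in no other annotated gene, against 100% in Stfa3, Cstb, Cst3 and Cst7. The counts of the first 4 therefore depend in part on how Salmon, the program named in the submitters' processing notes, shared reads among copies. For this reason the sum of the 5 copies is given beside each of them.

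Levels are given as CPM, counts set to the same library size after TMM scaling, which corrects for differences in RNA composition. Library totals ran from 33943090 to 55506993 counts. In both groups library 1 stood apart from libraries 2 and 3. The median absolute log2 difference between libraries 2 and 3 was 0.0674 in the negative and 0.107 in the positive group, and between library 1 and the others 0.572 to 0.578 and 0.368 to 0.377. Of 9 macrophage markers 8 were higher in the positive group and 0 lower, with a summed level of 322 to 1641 CPM in negative and 8483 to 11665 CPM in positive libraries. Of 13 neutrophil markers 10 were lower and 0 higher, with a summed level of 2981 CPM in negative library 1, 75912 and 76154 CPM in negative libraries 2 and 3, and 1375 to 1799 CPM in positive libraries. By the same test, described below, 18.5% of all genes tested were higher and 16.3% lower. Ly6g passed the filter on low counts, also described below, through the negative group alone. The macrophage marker Marco passed it through the positive group alone, so the calls of Ly6g and Marco carry no weight in these counts. Transcripts of neutrophil markers, Ly6g among them, were thus present in the negative libraries although the surface marker label gives the cells as lacking Ly6G. In bulk RNA, fewer cells of a type and less RNA per cell cannot be told apart.

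Cstb and Cst3 were higher and Cst7 and the stefin A copies that could be tested were lower in Qtracker positive cells. Cstb changed from 54.5 ± 21.0 to 414 ± 14.2 CPM and Cst3 from 253 ± 33.8 to 464 ± 41.1 CPM (SD, n = 3). Cst7 changed from 13.4 ± 3.48 to 5.39 ± 0.597 CPM and the sum of the 5 stefin A copies from 5.84 ± 3.64 to 0.291 ± 0.214 CPM. Of the 8 genes, 6 passed the filter on low counts, and of these 2 were called higher and 4 lower at an adjusted p under 0.05 (edgeR's quasi-likelihood test with the pair as a block, Benjamini-Hochberg adjusted over 14605 genes). Over all genes tested 34.9% were called, 18.5% higher and 16.3% lower. Stfa2 and Stfa3 did not pass the filter, and the low copies Stfa1, Stfa2l1 and BC100530 passed it through the negative group alone, so their number among the calls carries no weight.

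**Figure D1:**
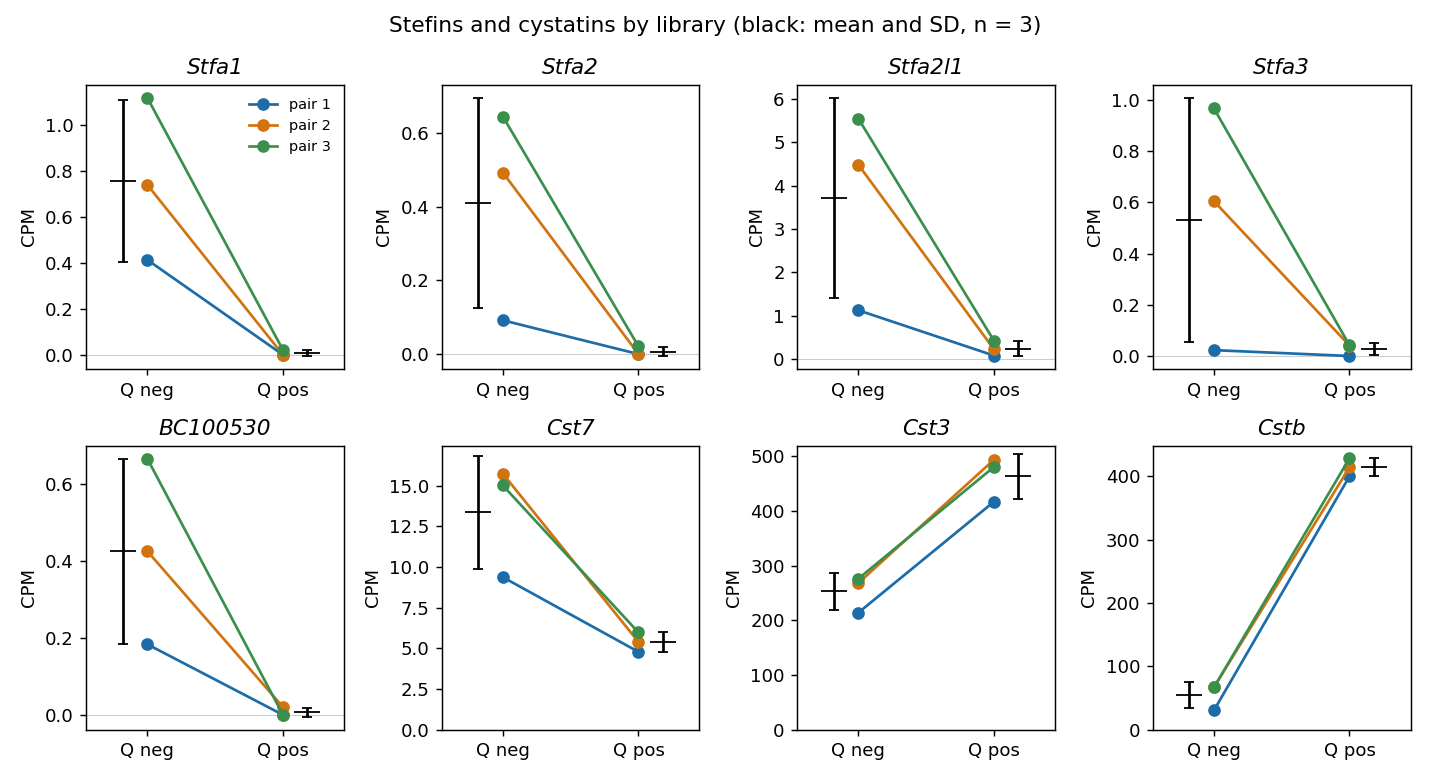
CPM of the 8 genes in each library, on linear axes that differ by panel; each line joins the 2 libraries of a pair, and the black marks beside the points are the mean and SD (n = 3). Cstb and Cst3 lie higher in every Qtracker positive library than in any negative one, while Cst7 and the stefin A copies lie lower, apart from Stfa3, whose groups overlap.

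Cstb encodes stefin B (cystatin B), the stefin found in nearly all cell types. Its level was 30.3, 66.8 and 66.6 CPM in Qtracker negative libraries 1, 2 and 3, and 399.9, 414 and 428.4 CPM in Qtracker positive libraries 1, 2 and 3. The positive libraries lay close together, the lowest of them several times above the highest negative library, and negative library 1 stood below its group. The log2 fold change was 3.01 ± 0.31 (standard error), a rise of 8.05-fold, with adjusted p = 0.0119 by edgeR. The difference within the pair was 3.72 on the log2 scale in pair 1, 2.63 in pair 2 and 2.69 in pair 3. It was largest in pair 1, where the negative library was lowest.

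Cst3 encodes cystatin C, the widely secreted inhibitor. It stood at 213.9, 268.1 and 276 CPM in negative libraries 1, 2 and 3 and at 416.9, 493.6 and 480.5 CPM in positive libraries 1, 2 and 3. The groups did not overlap, and library 1 was the lowest of each. The log2 fold change was 0.88 ± 0.13, or 1.84-fold, with adjusted p = 0.0206 by edgeR. The pairs differed little, at 0.96, 0.88 and 0.80 on the log2 scale. With library totals alone as scaling the call was lost, at a log2 fold change of 0.53 and edgeR adjusted p = 0.0526. That scaling moved the median of all genes to -0.36 from -0.01 and the share of calls that were higher to 32.2% from 53.2%, and relative to the median Cst3 was at 0.89.

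Cst7 encodes cystatin F, the leukocyte inhibitor of lysosomal cathepsins. It stood at 9.378, 15.74 and 15.02 CPM in negative libraries 1, 2 and 3 and at 4.79, 5.40 and 5.98 CPM in positive libraries 1, 2 and 3. Every positive library lay below every negative library, and negative library 1 was the lowest of its group. The gene fell by 1.28 ± 0.19 on the log2 scale, with adjusted p = 0.0197 by edgeR, and by 0.96, 1.54 and 1.32 in pairs 1, 2 and 3. Cst7 is also known as a marker of lipid-associated macrophages and of disease-associated microglia. Of 12 other genes of that state 9 were higher, 0 were lower and 3 did not pass, where 18.5% of all genes tested were higher. Among the 9 was the glycoprotein gene Gpnmb, at 269.9 and 11580 CPM in negative and positive means. The lipid carrier gene Apoe was at 2350 and 22294 CPM, and Spp1, which encodes osteopontin, at 382 and 8027 CPM. Cst7 thus differed in direction from the 9 that were called.

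Cst7 is expressed by cytotoxic lymphocytes and dendritic cells too, and markers of both were lower in the same libraries. Of 7 NK cell markers 6 could be tested and 5 were lower, where 16.3% of all genes tested were. All of these 5 but Il2rb passed the filter on low counts through the negative group alone, so their number carries no weight. The interleukin receptor chain gene Il2rb was at 51.3, 8.17 and 8.08 CPM in negative and 2.01, 0.407 and 0.571 CPM in positive libraries. The summed level of the NK markers was 66.9 CPM in negative library 1, 17.6 and 15.9 CPM in negative libraries 2 and 3, and 1.61 to 6.64 CPM in positive libraries. Ncr1, which defines NK cells, was at 0 in positive libraries 2 and 3. Nkg7, tested but not called (edgeR adjusted p = 0.153), was at 5.48, 5.598 and 4.362 CPM in negative libraries 1, 2 and 3. In positive libraries 1, 2 and 3 Nkg7 was at 1.401, 5.988 and 0.8663 CPM, so its groups overlapped. Nkg7 was most of the sum of 6.64 CPM in positive library 2. Of 7 dendritic cell markers 6 could be tested and 5 were lower, all of them but Ccr7 and Flt3 tested through the negative group alone. The sum of the 7 was 416.8 CPM in negative library 1, 134 and 141.7 CPM in negative libraries 2 and 3, and 15.3 to 19.2 CPM in positive libraries. Most of the sum was Ccr7, at 353.1, 106.5 and 112.6 CPM in negative libraries 1, 2 and 3. Clec9a, tested but not called, had a log2 fold change of 0.43 (edgeR adjusted p = 0.659) at or under 0.661 CPM. Both lists were highest in negative library 1, in which Cst7 was lowest of the negative group. Their part in the lower Cst7 level was not tested.

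Stefin A copies were low in every library. Stfa2l1 was the copy with the most counts, at 49, 200 and 258 counts (1.12, 4.48 and 5.54 CPM) in negative libraries 1, 2 and 3 and 3, 11 and 20 counts (0.0793, 0.224 and 0.423 CPM) in positive libraries 1, 2 and 3. The groups did not overlap, and library 1 was lowest in both. It fell by 3.94 ± 0.33 on the log2 scale (edgeR adjusted p = 0.00977). Pooled over the libraries of each group, its level was 14.85 times higher in the negative group, with a 95% exact binomial interval of 10.5 to 21.7, covering counting error only.

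The other copies had so few counts in the positive group that a ratio is imprecise. Stfa1 had 18, 33 and 52 counts in negative libraries and 0, 0 and 1 in positive libraries, a pooled ratio of 103 with an interval of 18 to 4090. BC100530 had 8, 19 and 31 counts in negative libraries and 0, 1 and 0 in positive libraries, a ratio of 57.8 with an interval of 9.965 to 2320. Both were called lower, with edgeR adjusted p = 0.0161 for Stfa1 and 0.0263 for BC100530, but their fitted log2 fold changes of -6.34 and -5.44 rest on 1 count in the positive group and ran from -7.70 to -4.68 and from -7.27 to -3.48 over the alternatives. Stfa2 had 4, 22 and 30 counts in negative libraries and 0, 0 and 1 in positive libraries, a ratio of 55.8 with an interval of 9.61 to 2242. Stfa3 had 1, 27 and 45 counts in negative libraries and 0, 2 and 2 in positive libraries, a ratio of 18.2 with an interval of 6.80 to 68.5. Stfa3 was the only copy whose groups overlapped, since negative library 1, with 1 count, lay below positive libraries 2 and 3. A count of 0 allows up to 0.0793, 0.0611 and 0.0634 CPM in positive libraries 1, 2 and 3, which is the level of 3 counts. Without a filter on low counts Stfa2 and Stfa3 were also called lower (edgeR adjusted p = 0.0315 and 0.0273).

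The sum of the 5 copies does not depend on how reads were divided among them. It was 80, 301 and 416 counts (1.83, 6.74 and 8.94 CPM) in negative libraries 1, 2 and 3 and 3, 14 and 24 counts (0.0793, 0.285 and 0.507 CPM) in positive libraries 1, 2 and 3. The groups did not overlap, and library 1 was again lowest in each. Fitted as 1 row in place of the copies, the sum fell by 4.37 ± 0.28 on the log2 scale (edgeR adjusted p = 0.00732), with differences of -3.92, -4.36 and -4.03 in pairs 1, 2 and 3. The sum too reached the filter through the negative group, so its p describes these counts and adds no support to those of the copies. Of the sum in the negative libraries, Stfa2l1 took 63.2 ± 2.80% (SD, n = 3) and Stfa1, the copy next in share, 15.3 ± 6.26%. With 41 counts over the 3 positive libraries, shares there cannot be compared with these.

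**Figure D2:**
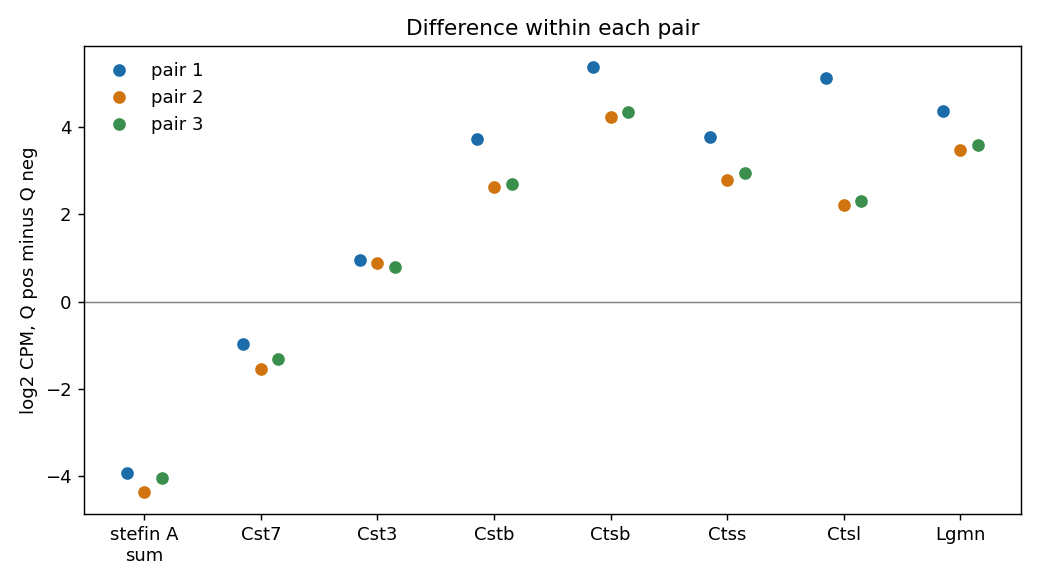
Difference in log2 CPM between the Qtracker positive and negative library of each pair, for the stefin A sum, the other 3 inhibitors and 4 of their target proteases. All 3 pairs lie on the same side of 0 for each gene, and pair 1 is the highest of the 3 for each, by the widest margin for Ctsl (5.13 against 2.21 and 2.30).

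Neutrophil genes moved in the same direction as the stefin A copies. Ltf, which encodes the lactoferrin of neutrophil granules, was at 134.8, 5326 and 5244 CPM in negative libraries 1, 2 and 3 and at 6.93, 25.8 and 29.4 CPM in positive libraries 1, 2 and 3. S100a9, which encodes a calcium-binding protein abundant in neutrophils, was at 1100, 21930 and 22160 CPM and at 94, 206.8 and 215.9 CPM in the same order. Ly6g had 58, 1157 and 1359 counts in negative libraries and 1, 0 and 18 in positive libraries. Like the stefin A sum, these genes were lowest in library 1 of the negative group, although the gap to libraries 2 and 3 was wider for Ltf and S100a9 than for the stefin A sum. Mmp8 (log2 fold change 0.76, edgeR adjusted p = 0.573), Csf3r (-0.29, 0.726) and Mmp9 (-5.32, 0.0595) were the neutrophil markers that did not pass, and Mmp8 and Csf3r made up most of the list's summed level in the positive group. Pair 1 differed from the others for all 3. Csf3r was at 1.29 on the log2 scale in pair 1 and at -0.97 and -1.08 in pairs 2 and 3, Mmp8 at 3.34, -0.36 and -0.27, and Mmp9 at -1.98, -6.57 and -6.57. The part of neutrophil RNA in the stefin A difference was not tested.

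**Figure D3:**
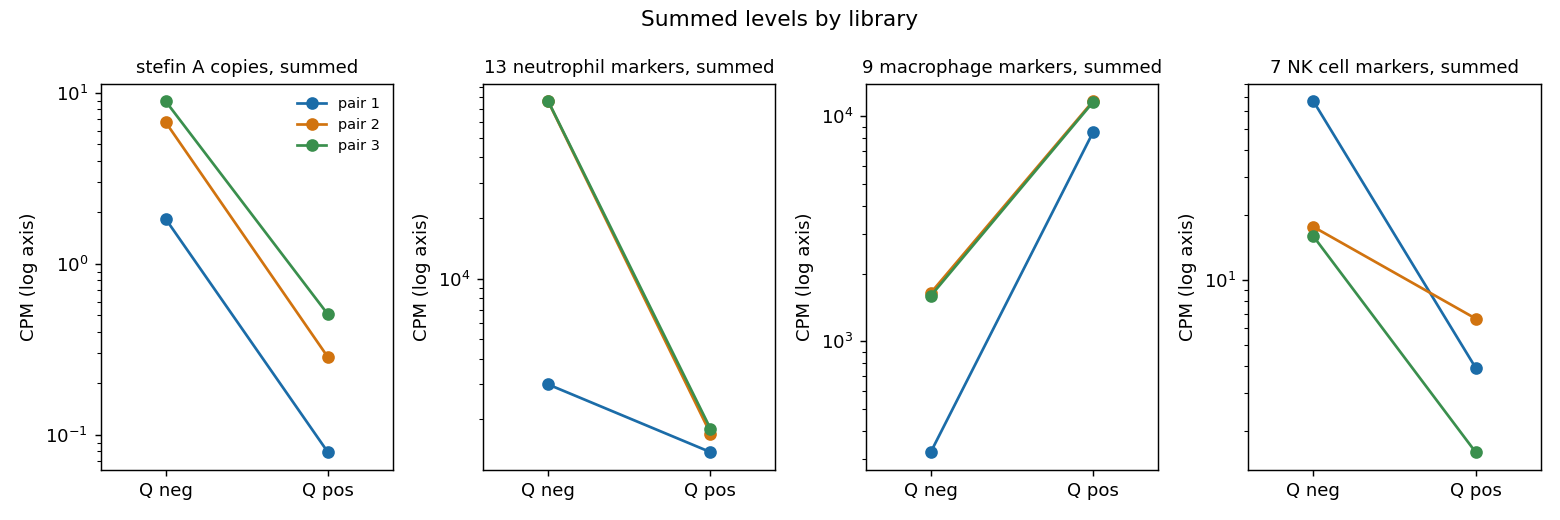
Summed CPM on log axes of the 5 stefin A copies, 13 neutrophil markers, 9 macrophage markers and 7 NK cell markers, with a line for each pair. The stefin A sum and the neutrophil markers are lower in every positive library than in any negative one, the macrophage markers are higher, and negative library 1 is low for stefin A, neutrophil and macrophage markers but high for NK markers.

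Of 27 further stefin, cystatin and related genes listed, 5 were in the table and 1 passed the filter. That gene, Gm5483, is another stefin A-like copy of the cluster, at chr16:36184212-36188111. It had 20, 57 and 97 counts in negative libraries 1, 2 and 3 and 1, 8 and 4 counts in positive libraries, and fell by 3.78 ± 0.55 on the log2 scale (edgeR adjusted p = 0.0195). The groups did not overlap, and the gene passed the filter through the negative group alone, so its call, like those of the copies, carries no weight. The other 4, the stefin A-like BC117090, Gm5416 and 2010005H15Rik and the epithelial cystatin gene Cst6, stayed at or under 0.229 CPM in every library. Ngp, which encodes a neutrophil granule protein with a cystatin-like fold, was listed with the neutrophil markers instead. It stood at 594.6, 20810 and 20460 CPM in negative libraries 1, 2 and 3 and at 55.1, 239.9 and 226.2 CPM in positive libraries 1, 2 and 3, and fell by 5.54 ± 0.97 on the log2 scale (edgeR adjusted p = 0.0266). Adding Gm5483, BC117090 and Gm5416 to the stefin A sum, a choice made after the data were seen, gave a log2 fold change of -4.17 (edgeR adjusted p = 0.00701).

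Per kilobase of the longest annotated transcript, the order of levels differed between the groups. In the negative group Cst3 was highest at 294 ± 39.3 CPM per kilobase, followed by Cstb at 90.5 ± 34.9, Cst7 at 13.6 ± 3.53 and Stfa2l1 at 8.87 ± 5.51 (SD, n = 3), and the other copies lay between 0.687 and 1.29. The ranges over libraries overlapped for Cst7 and Stfa2l1 and among the remaining copies, although within each negative library Cst7 was above Stfa2l1 and Stfa1 above BC100530. In the positive group Cstb was highest at 687 ± 23.6 CPM per kilobase, above Cst3 at 539 ± 47.7, Cst7 at 5.46 ± 0.606 and Stfa2l1 at 0.578 ± 0.411. The 4 lowest copies were at or under 0.0671 there. Summed over the 8 genes, the CPM level was 255 to 367 in negative and 822 to 915 in positive libraries, nearly all of it Cst3 and Cstb.

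Among the papain-family cathepsins and legumain, the group that holds the targets of these inhibitors, more genes were called higher than lower in the positive group. Of 11 genes, the papain-family cathepsins and legumain, 6 rose and 1 fell, where 18.5% and 16.3% of all genes tested did, with a median log2 fold change of 2.66 against -0.01 over all genes tested. Ctsb, which encodes the abundant lysosomal cathepsin B, was at 510.6, 1138 and 1118 CPM in negative libraries 1, 2 and 3 and at 21060, 21430 and 22780 CPM in positive libraries 1, 2 and 3. It rose by 4.65 ± 0.47 on the log2 scale (edgeR adjusted p = 0.0118), and negative library 1 was again lowest. Lgmn, which encodes legumain, a protease bound by cystatin C at a site apart from the papain site, rose by 3.81 ± 0.32 and Ctss, which trims the invariant chain in antigen presentation, by 3.17 ± 0.35. Ctsk, known from osteoclasts, rose by 5.81 ± 0.26, Ctsz by 2.66 ± 0.24 and Ctsh by 1.35 ± 0.22. The Ctsh call was lost with library totals alone (1.00, edgeR adjusted p = 0.0579). Ctsw, a cathepsin of NK and cytotoxic T cells, fell by 4.59 ± 0.51, from 3.33, 0.829 and 0.881 CPM in negative libraries to 0.211, 0.0204 and 0.0211 CPM in positive libraries. Ctsw reached the filter through the negative group alone, so its call carries no weight.

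Ctsl, Ctsc, Ctso and Ctsf did not pass. Ctsl, which encodes cathepsin L, had a log2 fold change of 3.14 ± 0.79 (edgeR adjusted p = 0.0516), with 5.13 in pair 1 against 2.21 and 2.30 in pairs 2 and 3. It passed without the pair as a block (0.0121), with upper quartile scaling (0.0493), with library totals alone (0.0494), by limma-voom (0.0321), by DESeq2 (1.01e-05) and on the authors' normalized table (0.0347). Ctsc, the main target of cystatin F, was at 256.4, 515.9 and 509.8 CPM in negative libraries and at 1070, 857.8 and 888.9 CPM in positive libraries, which do not overlap. Its log2 fold change was 1.19 ± 0.36 (edgeR adjusted p = 0.0704), and it passed without the block (0.0307) and by DESeq2 (0.0072). Ctso (0.78, 0.0747) also passed in these ways (0.0259 and 0.0365), while Ctsf, at 0.529 to 1.32 CPM, had 0.71 (0.265). The summed level of the proteases was 2110 to 4116 CPM in negative and 37722 to 41065 CPM in positive libraries, beside 255 to 367 and 822 to 915 CPM for the inhibitors. These sums are not scaled to transcript length, so the size of one cannot be set against the other. The longest annotated transcript has 4743 bases for Ctsb, 603 for Cstb and 860 for Cst3.

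**Figure D4:**
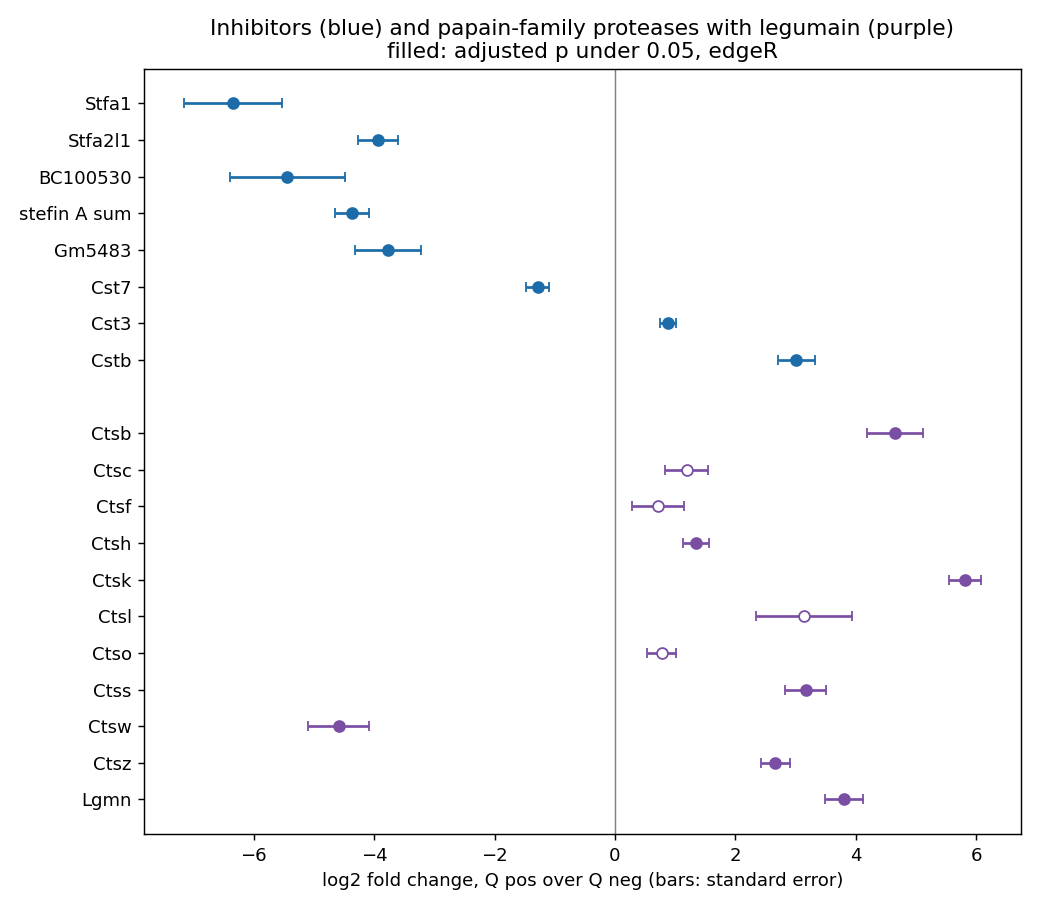
Log2 fold changes of the tested inhibitors, with the stefin A sum and Gm5483 (blue) and of the cysteine cathepsins with legumain (purple), with standard errors; filled points have an edgeR adjusted p under 0.05. The inhibitors run from -6.34 for Stfa1 to 3.01 for Cstb, and the proteases from -4.59 for Ctsw to 5.81 for Ctsk.

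Of 5 listed genes for serine proteases that cathepsin C activates, 5 were lower in the positive group, where 16.3% of all genes tested were. Gzma and Gzmb passed the filter on low counts through the negative group alone, so their calls carry no weight in this count. Elane, which encodes neutrophil elastase, was at 238.2, 520.1 and 485.7 CPM in negative libraries 1, 2 and 3 and at 35.0, 156.9 and 156.6 CPM in positive libraries, a fall of 2.04 ± 0.30 on the log2 scale (edgeR adjusted p = 0.0201). Prtn3, which encodes proteinase 3, fell by 1.96 ± 0.13 and Ctsg, which encodes cathepsin G, by 2.20 ± 0.54 (0.0491). The granzyme genes Gzma and Gzmb fell by 4.85 ± 0.74 and 5.09 ± 0.32, Gzma from 104, 32 and 26 counts in negative libraries to 5, 1 and 0 in positive libraries. Both granzyme genes were highest in negative library 1, as the summed level of the NK markers was. Elane, Prtn3 and Ctsg were lowest there among the negative libraries, as the neutrophil markers were. The part of either cell type was not tested. Without the block Elane (0.0567), Ctsg (0.0608) and Gzmb (0.0711) were not called. The Ctsg call was also lost with upper quartile scaling (0.052) and without a filter (0.052), and the Ctsg value was -1.54 without pair 1.

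For each inhibitor the most similar genes were sought among 8966 others with a mean log2 CPM of at least 3, by the smallest root mean square difference between the log2 CPM profiles over the 6 libraries after each was centred on its mean. Nearest to Cstb were Tpp1, which encodes a lysosomal peptidase, at 0.0626, the kinase gene Camk1 at 0.0723 and Hexa, which encodes a lysosomal hexosaminidase chain, at 0.0846. Nearest to Cst3 were Ndst2 at 0.042, Slc25a10 at 0.0462 and Arsa, which encodes the lysosomal arylsulfatase A, at 0.0467. Nearest to Cst7 were Inpp1 at 0.0709, Mppe1 at 0.0711 and Rasa2 at 0.0742. Nearest to the stefin A sum were a gene without a symbol in the table at 0.348, the immunoglobulin gene Ighg1 at 0.389 and Ipcef1 at 0.464. The stefin A sum had a mean log2 CPM of 0.23, below the minimum set for its neighbours, so these distances cannot be compared with those of the other inhibitors. All of them describe 6 libraries only.

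Promoter sequences were read for the same genes. RefSeq windows on GRCm38.p6, from 250 bases before to 50 after the start site, matched 7 of the 8 genes (all but Cstb). The 120 bases before the start site are shown for the copies whose start is the same in RefSeq and GENCODE, Stfa2l1 at chr16:36156691-36156810 (plus strand) and Stfa3 at chr16:36455393-36455512 (minus strand), and for Cst7 at chr2:150570295-150570414 (plus strand), since these genes were lower together or had fewer counts in the positive group. Capitals mark letters that match TTNNGNAA, a loose form of the C/EBP motif, on either strand.
Stfa2l1: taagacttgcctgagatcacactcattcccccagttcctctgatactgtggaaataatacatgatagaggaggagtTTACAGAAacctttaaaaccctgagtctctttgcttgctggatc
Stfa3: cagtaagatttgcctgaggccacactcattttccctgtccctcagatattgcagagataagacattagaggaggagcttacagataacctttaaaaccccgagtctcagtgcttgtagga
Cst7: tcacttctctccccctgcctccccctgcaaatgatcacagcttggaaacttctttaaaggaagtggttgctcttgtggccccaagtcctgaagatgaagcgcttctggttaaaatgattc

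Over the full windows TTNNGNAA occurred in Stfa1, Stfa2, Stfa2l1, BC100530 and Cst7 and not in Stfa3 or Cst3, with the matches of Cst7 outside the stretch shown, while 40.7% of 32817 promoter windows hold it. GAGGAAG, a core of the PU.1 motif, occurred in Stfa1 and BC100530, and 13.6% of windows hold it. CACGTG, the E-box core contained in the binding motif of lysosomal gene regulators, occurred in none of the 7, and 7.15% of windows hold it. For Stfa1, Stfa2, BC100530 and Cst3 the RefSeq start site, on which the window rests, lies 94 to 197 bases from the GENCODE start of the gene. Such matches describe letters in these windows only.

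How firmly each difference is known depended on which pairs were used. All 6 tested genes and the stefin A sum kept their direction in every alternative in which they were tested. Without pair 1, which stood apart, all 8 genes passed the filter, 2 were called higher and 6 lower by edgeR, and the same numbers were called by DESeq2. Of all 14932 genes tested there, edgeR called 10890 and DESeq2 8922, so most genes were called. Stfa1, Stfa2, Stfa2l1, Stfa3 and BC100530 reached the filter there through the negative group alone, so their number among these calls carries no weight. By edgeR, however, 0 of the 8 genes were called without pair 2, without pair 3, or with libraries 2 and 3 of each group summed into 1. Of all genes tested, edgeR called 311 of 14831 without pair 2, 0 without pair 3 and 0 with those libraries summed. These losses are therefore not particular to the 8 genes. Over those settings the edgeR adjusted p of Cstb was 0.0568 to 0.0664, of Cst3 0.186 to 0.195, of Cst7 0.14 to 0.1445 and of the stefin A sum 0.0584 to 0.0677. The unadjusted edgeR p stayed under 0.05 there for all tested inhibitors but Cst3 (0.0583 to 0.0652). DESeq2, run in the same settings after the data were seen, called Cstb, Stfa1, Stfa2l1 and the stefin A sum in each and did not call Cst3 (0.106 to 0.125) or Cst7 (0.0773 to 0.119). It did not call BC100530 without pair 2 (0.134), gave it no adjusted p with libraries 2 and 3 summed, and could not test it without pair 3, where the gene did not pass the filter. Among the proteases and serine proteases, edgeR called Ctsk (0.0456) and Gzmb (0.048) without pair 2 and none without pair 3, where Ctsk was at 0.0514 and Gzmb at 0.0581.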

How the data were processed

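RNA from 6 libraries (3 Qtracker positive, 3 Qtracker negative) was analysed from the deposited tables. Per the submitters' processing notes, the authors used FastQC, Salmon and mm10, named without versions. The raw table of estimated counts, deposited by the authors as whole numbers, was the input. The authors' normalized table, a signal equal to the count times a gene- and library-specific factor of unstated formula, served only as an alternative. No source used here gives the annotation release or says if strand entered the counting.

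Filtering by filterByExpr with group (10 counts, total of 15) left 14605 of 21847 genes. After TMM scaling they were tested with edgeR 4.0.16 in R 4.3.3 (quasi-likelihood, pair as a block), and an adjusted p (Benjamini-Hochberg) below 0.05 was a call. The F statistic gave the standard errors. Log2 CPM used a prior count of 2. Intervals of pooled counts are exact binomial at 95%. Pairing follows the design text. Same-numbered libraries deviated from their group means with correlations of 0.198, 0.0769 and 0.158, which by themselves do not show pairs. Negative library 2 with positive library 3 gave 0.147, and negative library 3 with positive library 2 gave 0.116, both above the 0.0769 of pair 2. Correlations of library 1 of either group with libraries 2 and 3 of the other ran from -0.185 to -0.114. The steps were tested on simulated data. The genes, lists and rules were chosen with earlier results of these data known. The naming rule covered all 8 genes, tested genes of the pathway lists, the 3 highest of each marker list, and the 3 nearest genes of each inhibitor. Of the highest markers, Klrd1, Zbtb46, Cd68, C1qb and Csf1r are not described above. Csf1r did not pass (edgeR adjusted p = 0.0753). Ltf, Ly6g, Csf3r, Mmp9, Ncr1, Clec9a, Marco and the low stefin A-like genes with Cst6 were named after their values were seen.

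Alternatives were 3 other scalings, no filter, a filter of 50 counts in 3 libraries, DESeq2 1.42.0, limma-voom (limma 3.58.1), the authors' table as log2 with 1 added, a fit without the block, each pair left out, and libraries 2 and 3 combined. Plots used matplotlib 3.10.9.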

Additional observations from a re-analysis of the deposited data

How the results depend on the processing

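Directions of the 6 tested genes and the stefin A sum were the same in every setting in which they were tested. Library totals alone gave 1572 genes higher and 1 of the inhibitors higher, and the filter of 50 counts left 1 of the inhibitors lower, since it removed the 3 stefin A copies tested. DESeq2 called 3665 genes lower. Leaving out a pair gave 0 to 5538 genes higher and 0 to 5352 lower by edgeR, and by DESeq2 4448, 1504 and 1467 higher without pairs 1, 2 and 3, with 4474 lower without pair 1. Among the inhibitors it gave 0 to 2 higher and 0 to 6 lower by edgeR, and 1 to 2 higher and 2 to 6 lower by DESeq2. The stefin A sum was at -4.52 to -4.27 there by edgeR and at -4.57 to -4.32 by DESeq2. With libraries 2 and 3 summed, edgeR called 0 genes higher and 0 lower (4488 at an unadjusted p under 0.05), with the stefin A sum at -4.37 and 0 inhibitors called, and DESeq2 called 1588 genes higher, 1 inhibitor higher and 2 lower. Without pair 3 edgeR called 0 genes, with 4209 at an unadjusted p under 0.05, and DESeq2 3208. The cause of these losses was not tested. Without the replicate block 5969 genes were called instead of 5091, and no inhibitor call changed. The block changed the calls of Ctsc, Ctsl, Ctso, Elane, Ctsg and Gzmb. Mmp8 ranged from -0.30 without pair 1 (-0.33 by DESeq2) to 1.54. Below about 3 counts in a library, stefin A levels were at the limit of depth.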
